A study of Mus musculus with 2 samples.

Results

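The cells described here were tumor-infiltrating CD45+ cells rich in the transcripts of the monocyte-attracting chemokines Ccl2, Ccl7 and Ccl12 and poor in markers of their neighbours. They were selected on their own unique molecular identifier (UMI) counts. Ccl2, Ccl7 and Ccl12 together made up at least 0.2% of a cell's UMIs and at least 5 UMIs. Chil3 was below 3 UMIs, Arg1 below 5 UMIs, the C1q genes (C1qa, C1qb, C1qc) below 0.2% and S100a8 with S100a9 below 1% of UMIs. At most 1 UMI of the Cd3 genes and 1 of Cd79a and Cd79b was allowed, and the melanoma genes Mlana, Pmel, Tyrp1 and Dct stayed below 0.1%. The rule took 311 of 12815 kept cells, 75 of 7086 in the control library and 236 of 5729 in the other.

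B16F10, a mouse melanoma line, had been grown under the skin of mice on a C57BL/6 background, and tumors were taken at day 14. Hosts were Usp18f/f mice, the control, or Usp18f/f LysM-Cre mice, in which Cre driven from the Lyz2 locus is meant to delete the flanked Usp18 gene in myeloid cells. Both groups carried the flanked allele, and only the second carried Cre. Live CD45+ cells from 4 pooled tumors per group went into a single droplet library for each group, loaded for 8000 cells. There is therefore no replicate: no test between the groups is possible, every interval below is a 95% interval that covers counting error only, and values compare 2 libraries. The labels give neither the sex nor the age of the mice.

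The libraries held 43412346 and 48167632 UMIs in 7754 and 6063 barcodes. The libraries shared 8 barcode sequences, none of them in a cell taken by the rule. Chemokine-high cells had a median of 6747 UMIs in the control library and 5010.5 in the other, with a median mitochondrial share of 4.39% and 3.20%. Xist, made from the inactive X chromosome of female cells, was detected without Y-linked UMIs in 12 control cells and 185 cells of the other library, and Y-linked UMIs without Xist in 43 and 7. The libraries thus differ in the sex of their cells as well as in genotype, so values within cells with Xist and within cells with Y-linked UMIs are given beside the main results between the libraries.

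Ccl2 and Ccl7 are ligands of Ccr2, the receptor that brings inflammatory monocytes out of the bone marrow and into inflamed tissue and tumors, and Ccl12 is a related mouse ligand of the same receptor. Monocytes and macrophages make these ligands themselves, so that recruited cells can attract more. Usp18 removes the ubiquitin-like protein Isg15 from its targets and, independently, binds the type I interferon receptor and dampens its signal. Interferon-stimulated genes are switched on by a transcription factor complex that includes Irf9 and binds a repeated GAAA element in promoters.

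In the GRCm38 annotation the 3 chemokine genes chosen by the rule lie within 67.8 kb of chromosome 11, on the plus strand: Ccl2 at chr11:82035571-82037453, Ccl7 at chr11:82045712-82047525 and Ccl12 at chr11:82101845-82103400. Ccl11, which lies between Ccl7 and Ccl12, had no UMI in any of the 311 cells, and Ccl8, which follows Ccl12, had 5 UMIs in the control cells and 195 in the others. The 250 bases before the start are shown for 4 of the interferon-induced genes that differ between the libraries, as described below. Those of Ccl12 are shown because it is a gene of the rule with a promoter entry. Sequences are from RefSeq (GRCm38.p6), run 5' to 3' on the strand of the gene, and have matches to GAAANNGAAA on either strand in capitals, with overlapping matches joined.
Isg15: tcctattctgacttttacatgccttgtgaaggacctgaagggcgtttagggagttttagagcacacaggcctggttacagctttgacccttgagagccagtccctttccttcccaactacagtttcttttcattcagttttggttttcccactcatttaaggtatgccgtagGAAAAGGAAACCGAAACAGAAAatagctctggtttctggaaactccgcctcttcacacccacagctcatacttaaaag
Rsad2: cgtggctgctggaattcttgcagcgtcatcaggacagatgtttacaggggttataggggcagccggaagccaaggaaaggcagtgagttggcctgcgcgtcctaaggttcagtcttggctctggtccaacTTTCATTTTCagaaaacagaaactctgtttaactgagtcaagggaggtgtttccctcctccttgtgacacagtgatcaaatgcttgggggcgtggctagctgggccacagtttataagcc
Ifit3: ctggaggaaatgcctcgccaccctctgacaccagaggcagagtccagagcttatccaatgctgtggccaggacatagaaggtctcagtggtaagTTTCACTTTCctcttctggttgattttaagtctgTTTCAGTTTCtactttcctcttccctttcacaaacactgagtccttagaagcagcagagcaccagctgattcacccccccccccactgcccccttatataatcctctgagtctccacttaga
Cxcl10: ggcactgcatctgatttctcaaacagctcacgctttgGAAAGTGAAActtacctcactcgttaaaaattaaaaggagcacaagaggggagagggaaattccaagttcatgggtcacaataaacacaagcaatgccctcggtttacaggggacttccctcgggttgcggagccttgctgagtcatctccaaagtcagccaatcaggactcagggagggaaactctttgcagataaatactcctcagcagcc
Ccl12: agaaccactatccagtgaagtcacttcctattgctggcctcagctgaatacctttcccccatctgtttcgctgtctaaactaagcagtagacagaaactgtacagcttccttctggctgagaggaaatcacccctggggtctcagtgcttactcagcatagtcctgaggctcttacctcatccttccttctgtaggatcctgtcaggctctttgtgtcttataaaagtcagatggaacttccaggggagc
The windows are chr4:156200819-156201068 (minus strand) for Isg15, chr12:26456453-26456702 (minus) for Rsad2, chr19:34583279-34583528 (plus) for Ifit3, chr5:92348890-92349139 (minus) for Cxcl10 and chr11:82101595-82101844 (plus) for Ccl12. Isg15 held 3 overlapping matches, the nearest starting 66 bases before the gene, Ifit3 held 2, Rsad2 and Cxcl10 held 1 each, and these letters do not occur in the Ccl12 window. The windows of Irf7, Ifi44 and Ly6c2, genes that also differ between the libraries, held no match and are not printed. Of the 35 interferon-stimulated list genes with a promoter entry, 16 (45.7%) had a match, against 936 of 27025 genes (3.46%) in the whole table. A match is a description of the letters and not a binding site.

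The chemokine genes varied widely among the cells they selected. Their summed share of a cell's UMIs had a median of 0.533% in the control cells (interquartile range 0.275% to 0.953%, highest 4.65%) and of 0.749% in cells of the library labelled knockout (0.380% to 1.21%, highest 7.67%). Ccl2 was present in every one of the cells. Ccl7 was detected in 59 of 75 control cells and 193 of 236 in the other library, and Ccl12 in 32 and 140. All 3 transcripts occurred together in 28 control cells (37.3%, exact interval 26.4% to 49.3%) and 124 cells of the other library (52.5%, 46.0% to 59.1%), and Ccl2 occurred alone in 12 and 27. Ccl7 outnumbered Ccl2 in 5 control cells and 32 of the others. Just inside the limit, from 0.2% to 0.3%, lay 23 and 41 cells with a median chemokine share of 0.239% and 0.25%. Just outside, from 0.1% to 0.2% with at least 5 UMIs and all other limits met, lay 44 cells in each library, at 0.153% and 0.135%, so the limit divides a continuous range.

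In summed UMIs, Ccl2 stood at 5353 CPM (counts among 1000000 UMIs of the summed cells; 5161 to 5550) in the control cells and 5718 (5587 to 5851) in the other library, Ccl7 at 1803 (1692 to 1919) and 2541 (2454 to 2631), and Ccl12 at 631 (567 to 702) and 1012 (958 to 1069). Because these values chose the cells, they are given as a description. In the control library 1 cell held 122 of the 346 Ccl12 UMIs, a spread between cells that the intervals do not cover. When every cell was thinned to 1000 UMIs (3 control cells and 28 of the others were shallower and left out), Ccl7 was found in 47.2% and 64.4% and Ccl12 in 16.7% and 41.3% of them. Before thinning the shares were 78.7% and 81.8% for Ccl7 and 42.7% and 59.3% for Ccl12. B cells of the same libraries (median 1532 and 1801 UMIs) were taken for comparison, with no UMI of Csf1r, Fcgr1 or Ms4a6c allowed. Their thinned shares were 0.973% and 4.27% for Ccl2, 0.406% and 2.40% for Ccl7 and 0.406% and 1.07% for Ccl12. Because B cells with those myeloid UMIs were left out, these shares can understate free RNA.

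**Figure D1:**
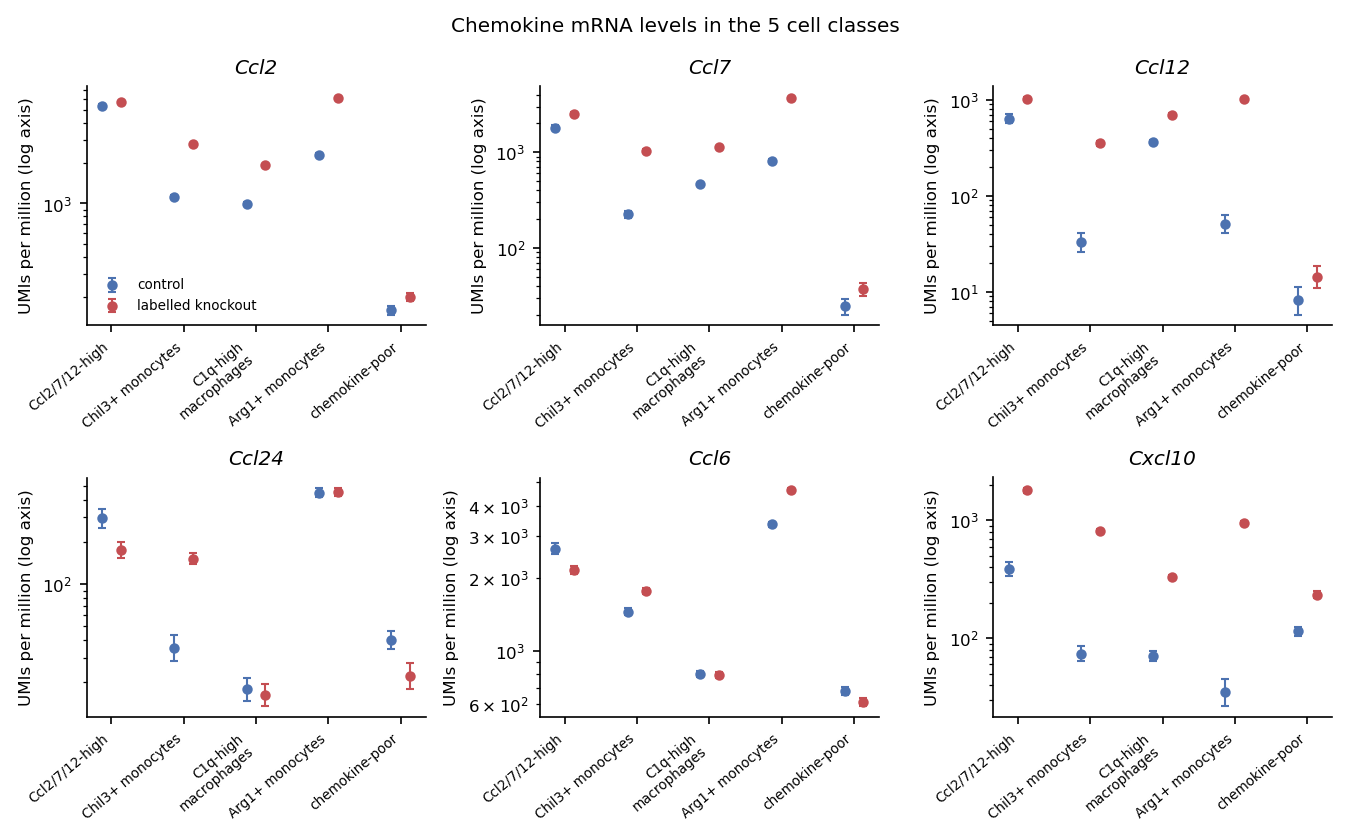
Levels of 6 chemokine transcripts (vertical axes, CPM, log scale) in 5 cell classes of each library. Points are summed UMIs of a class, and bars are exact 95% Poisson intervals. The Arg1-positive monocytes of the library labelled knockout lie above the chemokine-high cells for Ccl2, Ccl7, Ccl24 and Ccl6.

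High chemokine levels were not limited to these cells. For comparison, 4 classes were taken from cells that met the same S100a8 and S100a9, Cd3, Cd79 and melanoma limits. Chil3-positive monocytes had at least 3 UMIs of Chil3, C1q-high macrophages at least 0.2% of C1q UMIs and Arg1-positive monocytes at least 5 UMIs of Arg1. The C1q limit was kept for the Chil3 and Arg1 classes, the Arg1 limit for the Chil3 and C1q classes and the Chil3 limit for the C1q class. Chemokine-poor counterparts met the rule except for the chemokine limit and had at least 3 UMIs of Csf1r, Fcgr1 and Ms4a6c together. In all, 410 control cells (5.79%) and 1370 cells of the other library (23.9%) passed the chemokine limit, and 75 and 236 of them also met the other limits. C1q excluded 193 and 679 of the cells past the chemokine limit, Chil3 121 and 415, and Arg1 99 and 404, with overlap. Chemokine-high cells held 13.3% and 10.4% of all Ccl2 UMIs in their libraries, whereas C1q-high macrophages held 27.4% and 20.9% and Arg1-positive monocytes 18.0% and 20.2%. In the library labelled knockout, Arg1-positive monocytes carried 6135 CPM of Ccl2 and 3714 of Ccl7, more than the chemokine-high cells.

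The rule does not require a monocyte gene, so the monocyte label was set beside monocyte markers it did not use and lists for other cell types. The T-cell, B-cell, neutrophil and melanoma lists hold genes that the rule limits, so their low sums were partly set in advance and do not bear on the label. At least 1 UMI of Csf1r, Fcgr1 or Ms4a6c was found in 68 of 75 and 228 of 236 cells, and at least 3 UMIs of these genes together in 63 and 201. Ccr2, the receptor for the chemokines themselves, was at 1402 and 1314 CPM. Ly6c2, a surface marker of inflammatory monocytes, was at 98.6 CPM in the control cells and was detected in 22.7% of them, against 481 CPM in control Chil3-positive monocytes, so the control cells lack a defining monocyte marker at the level of that class. The accompanying markers Ccl24 and Ccl6 were at 296 and 2650 CPM in the control cells and at 177 and 2162 in the others, but were highest in Arg1-positive monocytes (450 and 3348, and 455 and 4630). Fibroblast, mast cell and basophil, and eosinophil marker lists were at 0 in both libraries. Of 6 B-cell markers 5 and 4 were at 0, the list summing to 9.13 and 6.33 CPM, and the 6 NK-cell markers summed to 3.65 and 0.792 CPM. Lists for T cells (110 and 163 CPM), neutrophils (115 and 72), the cDC1 and cDC2 types of dendritic cell (106 and 96.6, and 170 and 173) and melanoma (98.6 and 73.6) were low beside the monocyte and macrophage list (4723 and 7808). Migratory dendritic cell markers summed to 23.7 and 86.3 CPM and endothelial markers to 16.4 and 60.2. The plasmacytoid dendritic cell list summed to 305 and 1076 CPM, of which Bst2, also an interferon-stimulated gene, made up 201 and 900. Its defining marker Siglech was at 0 in the control cells. In the library labelled knockout none of the 6 plasmacytoid markers was at 0, and Siglech was at 8.95 CPM in the cells with Xist. Because these lists do not separate every mononuclear type, the cells are called chemokine-high cells below.

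Chemokine-high cells made up a larger part of the library labelled knockout, at 4.12% (exact interval 3.62% to 4.67%) of kept cells against 1.06% (0.833% to 1.32%), a ratio of 3.89 (3.01 to 5.03). The difference was not found in both kinds of cell. Among cells with Xist, 12 of 1564 control cells (0.767%) and 185 of 3677 in the other library (5.03%) met the rule. Among cells with Y-linked UMIs it was 43 of 2769 (1.55%, 1.13% to 2.09%) and 7 of 575 (1.22%, 0.491% to 2.49%), intervals that overlap, so for the share of cells the genotype and the sex of the cells cannot be told apart. As parts of the 5 myeloid classes together, the ratio of shares was 1.34 on the log2 scale, in place of 1.96 over all kept cells. Usp18, the targeted gene, checks the labels. It was at 36.5 CPM (22.3 to 56.4) in the control chemokine-high cells and at 260 CPM (232 to 289) in those labelled knockout, a ratio of 7.11 (4.53 to 11.8), opposite to a loss of its transcript. Within cells with Xist Usp18 was at 75.2 and 250 CPM (ratio interval 1.59 to 8.35), and within cells with Y-linked UMIs at 21 and 169. The labels do not say which part of Usp18 is flanked, and 3' counting would still count a transcript that lacks an upstream part. Usp18 is itself interferon-induced. Lyz2, the lysozyme gene that carries Cre, was at 10377 CPM in the control cells and 23.7 in the others, and was at 0 in the 7 cells with Y-linked UMIs of the library labelled knockout. UMIs of its near-identical neighbour Lyz1, which sequence alone may not always separate, were at 32.9 and 495 CPM and were found in 13.3% and 14.0% of cells.

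Transcripts induced by type I interferon were far higher in the chemokine-high cells of the library labelled knockout. Of 7129 genes with at least 20 UMIs, 351 were at least 2-fold higher (4.92%) and 115 at least 2-fold lower (1.61%), after adding 5 CPM to each level. The interferon-stimulated list gave 42 of 45 genes at least 2-fold higher and none lower, with a median log2 ratio of 2.11 against -0.02 for all genes measured. Isg15, the ubiquitin-like modifier that Usp18 removes, stood at 82.1 CPM (59.9 to 110) in the control cells and at 1910 (1834 to 1988) in the others, 23.3 times as much (17.3 to 32). Rsad2, the antiviral enzyme viperin, was at 31.0 and 1733 CPM (55.8 times, 34.8 to 96.0). Ifit3, which binds and restrains viral RNA with other Ifit proteins, was at 21.9 and 601 CPM. Slfn4, a Schlafen gene of myeloid cells, was at 14.6 and 546 CPM. The intervals of these genes did not overlap between the libraries. Ifi44 and Pydc3 had no UMI in the control cells and stood at 83.9 and 127 CPM in the others, at least 15.3-fold and 23.3-fold higher when set against a floor of 3 UMIs over the group.

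The factors that carry the interferon signal differed unequally. Irf7, the factor that amplifies type I interferon, was at 49.3 and 704 CPM. Stat2 was at 27.4 and 164 CPM, and Irf9, the lowest ratio of the list, at 51.1 (34.0 to 73.9) and 80.7 (65.8 to 98.0), whose intervals overlap. The list was uneven between cells: it made up a median of 0.369% of UMIs in control cells (interquartile range 0.207% to 0.721%) and 1.5% in the others (0.862% to 3.37%, highest 12.3%). After thinning to 1000 UMIs, Isg15 was found in 8.33% of control cells (exact interval 3.12% to 17.3%) and 46.2% of the others (39.2% to 53.2%), and Rsad2 in 4.17% and 34.1%. Without thinning these shares were 24.0% and 67.8%, and 10.7% and 47.0%, and in thinned B cells they were 0.487% and 2.40%, and 0.487% and 1.33%.

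**Figure D2:**
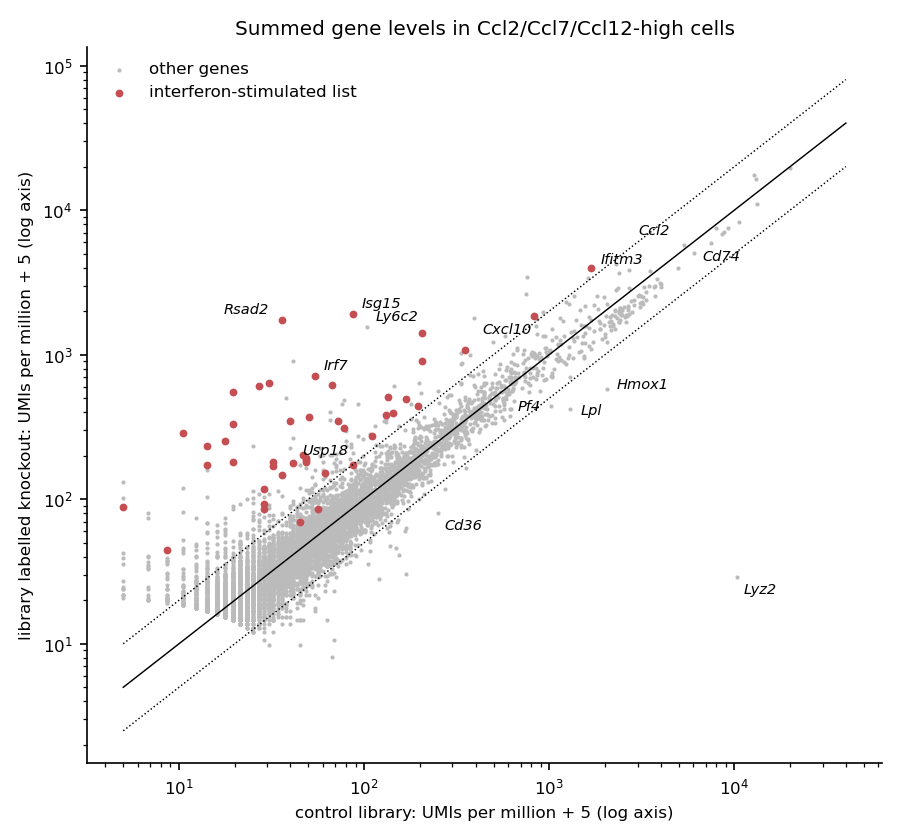
Gene levels in the chemokine-high cells of the control library (horizontal) and of the library labelled knockout (vertical), as CPM plus 5 on log axes, for the 7129 genes with at least 20 UMIs. Red points are the interferon-stimulated list, the solid line marks equal levels and the dotted lines a 2-fold difference: 42 of the 45 red points lie above the upper dotted line.

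The interferon-stimulated difference was present in both kinds of cell. Among cells with Xist, where 15.2% of 6150 genes were at least 2-fold higher and 8.57% lower, 42 of the 45 list genes were higher, with a median of 2.43. Among cells with Y-linked UMIs, 7 of them in the library labelled knockout, 10.2% of 2918 genes were higher and 17.2% lower, and 24 of the 28 list genes measured were higher, with a median of 1.92. In the cells with Xist, Isg15 was at 150 CPM in the control library and 1883 in the other, and Irf7 at 53.7 and 677. In those with Y-linked UMIs, Isg15 was at 66 and 955 CPM and Irf7 at 59.97 and 787. Genes linked mainly to interferon gamma moved less evenly. In all cells 11 of 17 measured were at least 2-fold higher and 1 lower, with a median of 1.42, among them the guanylate-binding protein gene Gbp2 (80.3 and 236 CPM) and the GTPase gene Iigp1 (20.1 and 109 CPM). In cells with Y-linked UMIs only 2 of 8 were, with a median of 0.46, against 16 of 17 and 2.72 in cells with Xist.

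**Figure D3:**
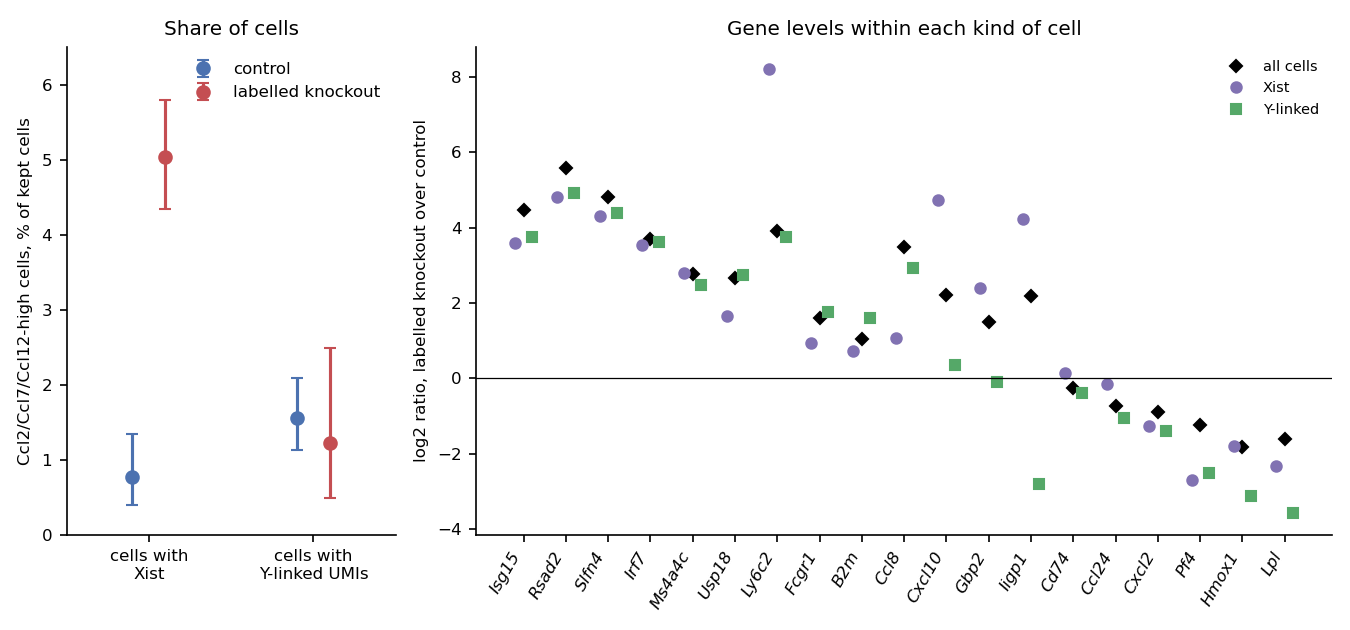
Left, chemokine-high cells as a percentage of kept cells with Xist or with Y-linked UMIs, with exact 95% intervals. Right, log2 ratios of (CPM + 5) between the libraries, positive where the one labelled knockout is higher, for 19 genes in all chemokine-high cells and within each kind, without error bars. Isg15, Rsad2 and Irf7 are above 0 in each kind, while Gbp2 and Iigp1 lie on opposite sides of 0.

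MHC class I and class II genes differed from each other. All 13 measured MHC class I genes had log2 ratios above 0 and 8 were at least 2-fold higher, with a median log2 ratio of 1.03. B2m, the light chain of class I, was at 1613 CPM (1509 to 1723) in the control cells and 3361 (3261 to 3464) in the others, and H2-K1 at 858 and 1761. For MHC class II none of 7 measured genes was 2-fold apart over all chemokine-high cells and the median was -0.18. Cd74, the class II invariant chain, was at 6063 and 5047 CPM and H2-Aa at 2446 and 1947. B2m and H2-K1 lie close to the 2-fold limit, and within cells with Xist their log2 ratios were 0.72 and 0.69, below it, while 10 of 13 class I genes passed. Within cells with Y-linked UMIs the log2 ratios of B2m and H2-K1 were 1.61 and 1.12, and 5 of 10 class I genes were higher and 1 lower. Of all genes, 15.2% were higher within cells with Xist, and 10.2% were higher and 17.2% lower within cells with Y-linked UMIs. Cd74 and H2-Aa had log2 ratios of 0.15 and 0.18 within cells with Xist and -0.38 and -0.98 within cells with Y-linked UMIs. Class II also varied widely among the cells themselves. Its share of UMIs had an interquartile range of 0.0455% to 2.13% in control cells, and it reached at least 1% in 28 of 75 control cells and 66 of 236 of the others.

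Monocyte genes were divided too. Ly6c2 was at 98.6 CPM (74.0 to 129) in the control cells and 1552 (1484 to 1622) in the others, and was present in 22.7% and 68.6% of cells. Plac8, a gene of recently recruited monocytes, was at 746 and 2619 CPM, Fcgr1, the high-affinity IgG receptor CD64, at 329 and 1016, and Ms4a4c, of the interferon list, at 201 and 1398. Within cells with Xist, Ly6c2 was at 0 and 1469 CPM and Plac8 at 183 and 2509, and within cells with Y-linked UMIs they were at 147 and 2023, and 1001 and 2163. Fcgr1 had log2 ratios of 0.95 and 1.75 in these 2 kinds of cell. By contrast, over all chemokine-high cells Ccr2 was at 1402 and 1314 CPM and Csf1r, the receptor for the growth factor M-CSF, at 422 and 359. Within cells with Xist Ccr2 was at 859 and 1294 CPM (ratio interval 1.20 to 1.91) and Csf1r at 408 and 356. Csf1r had a log2 ratio of 0.722 within cells with Y-linked UMIs. Over all chemokine-high cells 6 of 17 monocyte-list genes were at least 2-fold higher and 1 lower, with a median of -0.07. The lower gene was Cx3cr1, the fractalkine receptor of patrolling monocytes, at 144 and 41.2 CPM, which within cells with Xist and within those with Y-linked UMIs was not lower (21.5 and 37.6, and 156 and 197 CPM).

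Chemokine genes outside the rule did not share 1 direction. Cxcl10, an interferon-induced ligand that draws activated T cells, was at 387 CPM (337 to 443) in the control cells and 1796 (1723 to 1871) in the others, but was found in only 9.33% of control cells against 39.4%. Of the 75 control cells 68 had no Cxcl10 UMI, while the highest share in a cell was 1.44% of its UMIs. The control level thus rests on few cells, a spread that the intervals do not cover. In cells with Y-linked UMIs Cxcl10 levels were 618 and 787 CPM, and in cells with Xist 64.4 and 1852. Ccl8, another Ccr2 ligand of the same gene cluster, was at 9.13 and 154 CPM, with a UMI in 2.67% and 14.4% of cells. Within cells with Xist it was at 42.9 and 94.9 CPM, a difference that counting error spans (ratio interval 0.838 to 8.26), and within cells with Y-linked UMIs it had 1 and 2 UMIs. Ccl4, a macrophage inflammatory protein, was at 662 and 1066 CPM, while its neighbour Ccl3 was at 507 and 360. Within cells with Xist Ccl4 and Ccl3 had log2 ratios of 1.174 and -0.013. Within cells with Y-linked UMIs both were lower, at -0.895 and -1.615. Ccl9 was at 1641 and 1532 CPM, with overlapping intervals (1535 to 1752 and 1464 to 1601). The neutrophil-attracting Cxcl2 was at 1296 and 700 CPM, and the related Cxcl3 at 150 and 36.4. Pf4, platelet factor 4, which macrophages also make, was at 1020 (937 to 1108) and 434 (398 to 472). Of the 7 measured CXC and other chemokines 4 were at least 2-fold lower (Cxcl3, Pf4, Cxcl9 and Ppbp) and 1 higher, with a median of -1.19. None of these 4 held under every alternative: Cxcl9 was higher within cells with Xist, Ppbp was not lower and Pf4 had a log2 ratio of -0.319 at a mitochondrial limit of 5%, and Cxcl3 had -0.572 after thinning to 2000 UMIs. Within cells with Xist and within those with Y-linked UMIs, Pf4 had -2.69 and -2.52. Of 7 other CC chemokines 2 were higher, Ccl8 and Ccl5, and none lower, but Ccl5 was lower in cells with Y-linked UMIs.

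Some genes of scavenging and heme-iron handling were lower in the library labelled knockout. In the scavenging and heme-iron list 5 of 12 measured genes were at least 2-fold lower and none higher, with a median of -0.76. Hmox1, which degrades heme, was at 2035 CPM (1917 to 2158) in the control cells and 578 (537 to 621) in the others, 3.52 times lower (3.21 to 3.87). Gclm, a subunit of the enzyme that limits glutathione synthesis, was at 115 and 23 CPM, Slc7a11, the cystine importer, at 133 and 42.7, and Cd36, a scavenger receptor, at 245 and 75.2. Lpl, lipoprotein lipase, which is in none of the lists, was at 1285 and 416 CPM. Hmox1 was also lower within cells with Xist (1643 and 472 CPM) and within cells with Y-linked UMIs (1985 and 225). Lpl had log2 ratios of -2.32 and -3.56 and Cd36 of -2.43 and -0.91 in these 2 kinds of cell, and the scavenging and heme-iron list had 7 of 12 and 5 of 11 genes at least 2-fold lower. For this and the following lists, 8.57% of all genes were lower and 15.2% higher within cells with Xist. Within cells with Y-linked UMIs 17.2% were lower and 10.2% higher. In the macrophage growth factor and cytokine list, over all chemokine-high cells, 6 of 12 measured were at least 2-fold higher and none lower, with Il15 at 9.13 and 54.6 CPM and Il18 at 25.6 and 86.3. The direction of that list turned between the kinds of cell, with 6 of 10 higher within cells with Xist and 3 of 4 lower within cells with Y-linked UMIs. Over all chemokine-high cells no glycolysis and hypoxia gene was 2-fold apart (0 of 19, median 0.27). Within cells with Xist 4 of 19 were higher, near the share of all genes, and within cells with Y-linked UMIs 6 of 17 were lower. Of 16 macrophage maturation genes 1 was higher and none lower (median 0.09), while 5 of 16 were lower within cells with Xist and 6 of 13 higher within cells with Y-linked UMIs. The dissociation stress list had 1 of 18 genes at least 2-fold lower and a median of -0.10.

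**Figure D4:**
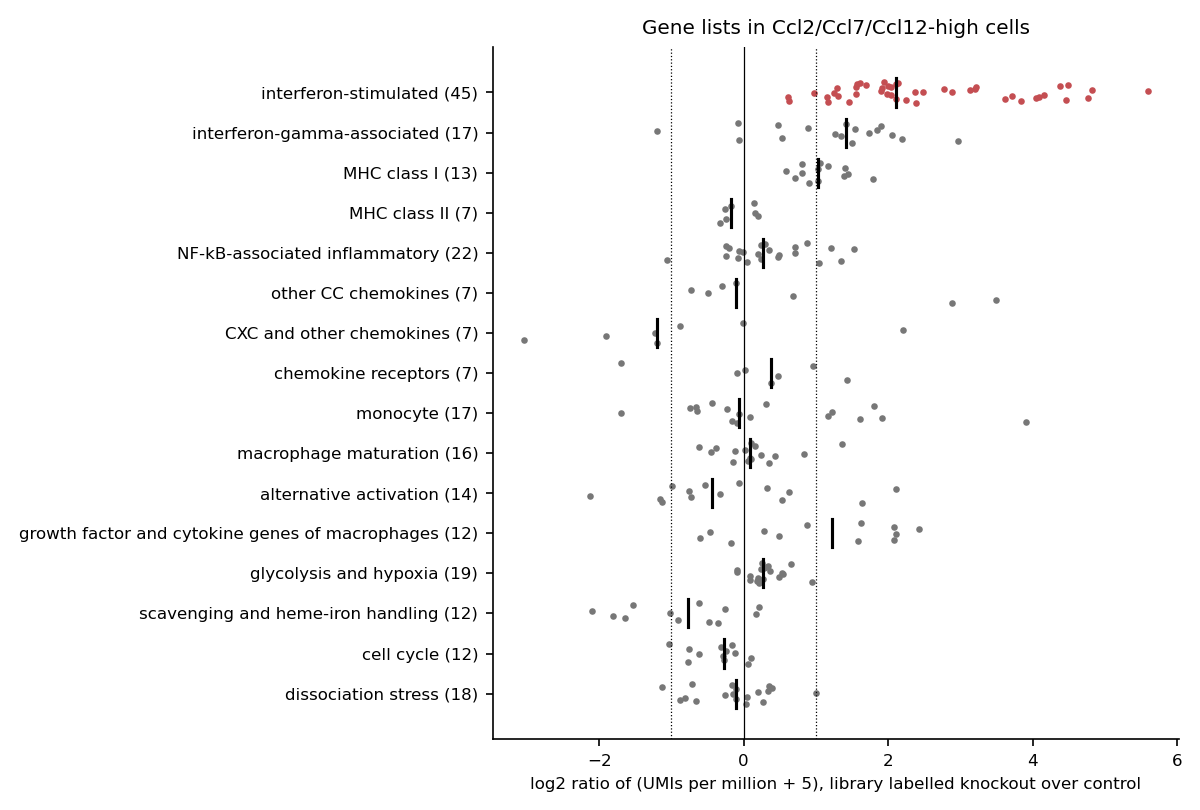
Log2 ratios of (CPM + 5), library labelled knockout over control, in the chemokine-high cells. Each point is a gene with at least 20 UMIs, the bars are list medians, the number measured is in brackets and dotted lines mark a 2-fold difference. The interferon-stimulated median lies at 2.11 and the CXC and other chemokine median at -1.19.

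Within each library, the chemokine-high cells were set beside the most similar classes. Relative to Chil3-positive monocytes, in the control library 2.7% of 8190 genes were at least 2-fold higher and 5.01% lower, and in the library labelled knockout 1.64% and 1.76% of 8796. MHC class II was at least 2-fold higher for 4 of 8 genes in the control library and 3 of 9 in the other, with medians of 1.22 and 0.86. Macrophage maturation genes were at least 2-fold higher for 7 of 16 and 4 of 17 and cell-cycle genes for 6 of 10 and 6 of 13. Monocyte genes were at least 2-fold lower for 7 of 17 and 6 of 17. Ms4a7, a membrane gene of tissue macrophages, had log2 ratios of 1.99 and 1.26, and Mrc1, the mannose receptor, of 2.08 and 1.19. Hp, haptoglobin, had -3.33 and -2.37, and the transcription factor genes Klf2 and Nr4a1 had -1.88 and -1.58, and -1.60 and -1.82. Chil3 itself was set by the rule. Ccl24 separated the classes in the control library (2.90) more than in the other (0.21). It was detected in only 18.7% of the control chemokine-high cells and 9.75% of the others. Its log2 ratio between the libraries in chemokine-high cells was -0.728, but 0.886 at a mitochondrial limit of 5%.

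The interferon-stimulated list was also set against Chil3-positive monocytes. Its median log2 ratio of chemokine-high cells over Chil3-positive monocytes was -0.03 in the control library, with 1 of 41 genes at least 2-fold higher. In the library labelled knockout it was 0.43, with 13 of 45 higher and none lower, led by Ifi44 at 1.88, and Rsad2 was at 1733 CPM in the chemokine-high cells and 578 in the Chil3-positive monocytes. After thinning to 2000 UMIs the median of 0.43 became 0.119. There the rule was applied to the thinned counts, with a chemokine limit of 4 UMIs. It took 129 control cells and 332 of the others in place of 75 and 236, so the 2 medians describe different cells. The control value ran from -0.541 in cells with Xist to 0.259 in cells with Y-linked UMIs, settings unlike the thinning, and this range is not an error range. A difference between the libraries was not tested. The list was higher in the library labelled knockout in every class, with a median of 1.63 in Chil3-positive monocytes, 0.98 in C1q-high macrophages, 2.40 in Arg1-positive monocytes and 1.36 in chemokine-poor counterparts, against 2.11 here. Whether the size differs between classes could not be tested with 1 library per group.

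**Figure D5:**
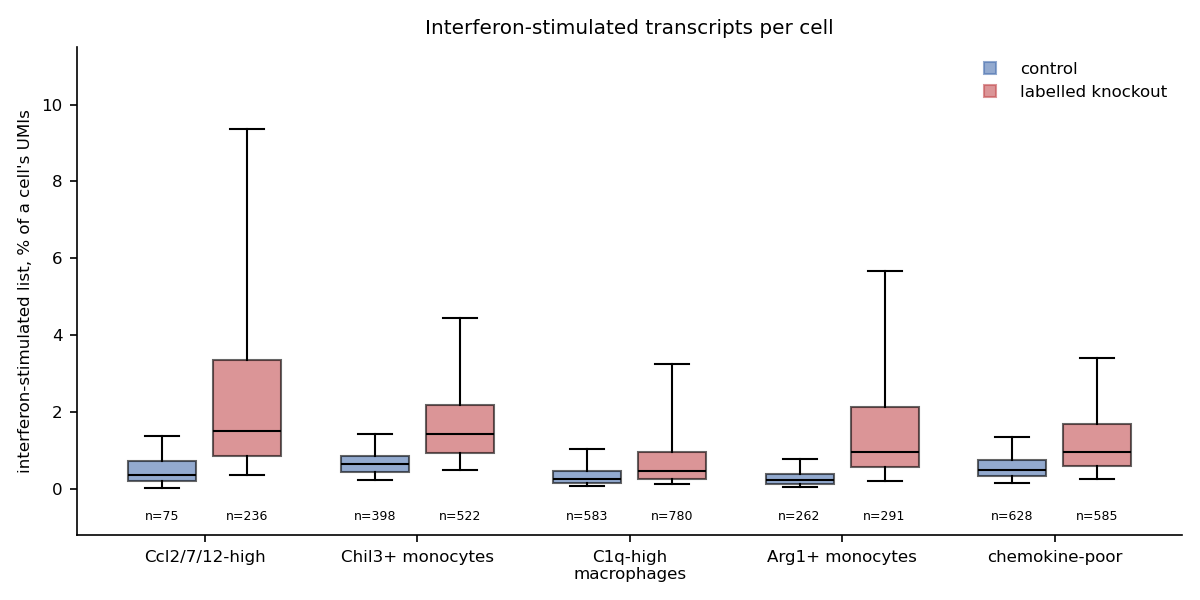
Share of each cell's UMIs that fell on the interferon-stimulated list, in 5 cell classes of the control library (blue) and the library labelled knockout (red). Boxes span the interquartile range with the median marked, whiskers run from the 5th to the 95th percentile and cell numbers stand below. The chemokine-high cells have medians of 0.369% and 1.5%.

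Against C1q-high macrophages, most monocyte-list genes were higher in chemokine-high cells and most cell-cycle genes lower. In the control library 2.42% of 9903 genes were at least 2-fold higher and 7.54% lower, and in the other 4.74% and 5.96% of 10172. Monocyte-list genes were at least 2-fold higher for 10 of 17 and 14 of 17, led by the matrix genes Thbs1 (log2 ratios 4.04 and 2.95) and Vcan (3.09 and 3.53) with Fn1 (2.47 and 2.54). The inflammatory cytokine gene Il1b had 2.52 and 2.10, and Osm, oncostatin M, 2.47 and 2.29. Macrophage maturation genes were at least 2-fold lower for 8 of 17 in each library, Apoe at -1.58 and -1.62 among them, and cell-cycle genes for 11 of 15 and 13 of 15. Timp2, an inhibitor of matrix proteases outside the lists, had -2.35 and -2.38.

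Against Arg1-positive monocytes the glycolysis and hypoxia list marked the difference. In the control library 5.65% of 7543 genes were at least 2-fold higher and 5.45% lower, and in the other 1.36% and 1.49% of 8453. Of its 19 genes 16 were at least 2-fold lower in the control chemokine-high cells and 6 in the others, with none higher and medians of -1.45 and -0.80. Hilpda, a hypoxia-induced lipid droplet protein, had -2.60 and -1.74, and Vegfa, the vascular growth factor, -2.56 and -2.29. Cxcl2 was lower as well (-1.56 and -1.59). The cholesterol synthesis genes Cyp51 (2.54 and 1.04) and Fdps (1.66 and 1.18), and the membrane protein gene Tmem176b (2.85 and 1.70), were higher. The chemokine-poor counterparts carried more dendritic cell transcripts, with cDC2 markers at 1050 and 1156 CPM, cDC1 markers at 230.4 and 217 and migratory dendritic cell markers at 72.7 and 254, whose part in the following values was not tested. Against them Ctsl, a lysosomal protease, had 2.46 and 2.41, the complement receptor genes C5ar1 and C3ar1 had 2.37 and 2.30, and 1.96 and 1.94, and Ciita, the master regulator of MHC class II, had -1.64 and -1.65.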

How the data were processed

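The authors counted UMIs per gene and barcode from 1 droplet library per group with Cell Ranger 3.0.1 on the mouse build mm10, per the submitters' processing notes. The deposited values are raw counts of called cells, per the file headers, with no normalization. Kept barcodes had 200 or more genes and a mitochondrial share of 10% or less. Likely doublets (Scrublet) were left in and removed in an alternative, which took out 1 of the 75 and 5 of the 236 chemokine-high cells. The cells, gene lists and comparison classes were chosen with earlier results of these data known. UMIs were summed over the cells of a class and divided by the class total to give CPM, the count among 1000000 UMIs. Ratios are log2 of (CPM + 5), over genes with at least 20 UMIs in the sums compared, and a gene is called 2-fold apart at a log2 ratio of at least 1 or at most -1. Intervals are exact Poisson for a level, exact conditional binomial for a ratio of levels, exact Clopper-Pearson for a share and log-normal for a ratio of shares, all at 95%. Genes are named from the gene lists, the rule and the targeted and Cre loci. Beyond these they come from the 10 highest and 10 lowest log2 ratios per comparison, among genes with at least 50 UMIs, a UMI in at least 10% of cells of one side and no cell with over 20% of a sum, technical genes left out. Cells with Xist or with UMIs of 4 Y-linked genes were also summed apart. The code was tested on simulated counts. Python 3.11.15, scipy 1.17.1 and scanpy 1.11.5 were used. Of the list genes 8 are not analysed here. Alternatives are in the closing section. Some items are not reported here.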

Additional observations from a re-analysis of the deposited data

Results flagged for a closer look

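Some list medians had opposite signs in the 2 kinds of cell; these differences were not tested, and they rest on 12 control cells with Xist and 7 cells with Y-linked UMIs in the library labelled knockout. The macrophage maturation list had a median log2 ratio (library labelled knockout over control) of -0.663 in chemokine-high cells with Xist and 0.892 in those with Y-linked UMIs. The macrophage growth factor and cytokine list had 1.575 and -2.137, with only 4 of its 20 genes measured in the latter. The glycolysis and hypoxia list had 0.529 and -0.405. The share of chemokine-high cells had a log2 ratio of 2.713 among cells with Xist and -0.351 among cells with Y-linked UMIs. Xist itself, which entered no comparison between groups, stood at 869.1 CPM in the chemokine-high cells of the library labelled knockout and 332.2 CPM in those of the control library.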

How the results depend on the processing

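Of 16 alternatives, 10 applied to the share of cells, 15 to the list medians and gene counts and 13 to single genes. The interferon-stimulated median in chemokine-high cells ranged from 1.807 to 2.426, and that over Chil3-positive monocytes in the control library from -0.541 to 0.259. Over the same monocytes of the library labelled knockout it was 0.119 after thinning to 2000 UMIs and 0.829 among cells with Y-linked UMIs. The log2 ratio of shares was 1.541 at a chemokine limit of 0.1%, 1.389 after thinning, 1.343 among the 5 classes, 2.713 in cells with Xist and -0.351, the opposite direction, where Y-linked UMIs were found. The Usp18 log2 ratio was 1.669 in cells with Xist. Genes at least 2-fold higher numbered 936 in cells with Xist, 190 with a pseudocount of 20 CPM and 162 at 100 or more UMIs. Genes at least 2-fold lower numbered 527 with Xist, 502 with Y-linked UMIs, 214 and 28 with pseudocounts of 1 and 20 CPM, 253 as means of per-cell CPM, 24 at 100 or more UMIs and 268 at 1 or more. Of named genes at least 2-fold apart in the main values, those that took the opposite sign were Cxcl9 (2.066) and Cx3cr1 (0.687) in cells with Xist, Cx3cr1 (0.326), Ccl5 (-1.137), Gbp2 (-0.09) and Iigp1 (-2.807) in cells with Y-linked UMIs, Siglech (-0.252) with the Chil3 and Arg1 limits as shares, and Ppbp (0.185) at a mitochondrial limit of 5%. Genes less than 2-fold apart also changed sign, among them Ccl4 (-0.895, Y-linked UMIs) and Ccl24 (0.886, 5% limit). So did the 3 genes of the chemokine limit, Ccl2 (-1.073) and Ccl12 (-0.411) with Y-linked UMIs and Ccl7 (-0.131) with Xist. The causes were not tested. With 75 control cells, few UMIs of low genes and 1 library per group, counting error and library differences limit every value. No paired analysis was possible because each group is 1 library.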
